A study of Danio rerio with 4 samples.

Results

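The signal transducers and activators of transcription (STATs) were examined in β-cells of the zebrafish (Danio rerio). All genes whose symbol in the deposited table is stat1a, stat1b, stat2, stat3, stat4, stat5a, stat5b or stat6 were taken, which gave 8 genes of 22044. Values were compared between Tg(ins:il1b), in which the insulin promoter drives the mature form of zebrafish il1b so that β-cells make the cytokine themselves, and WT siblings. The construct also holds cryaa:mCherry, an eye marker of carriers, and both groups carry an mKO reporter under the insulin promoter, labelled Tg(ins:mKO) and given in the study's methods as Tg(ins:nlsRenilla-mKO2). Fish were 3 months old, islets were dissected and dissociated, and β-cells were sorted by FACS before mRNA sequencing of 2 libraries per genotype. The sources used here do not say how many fish went into a library or whether replicate libraries stem from different fish, so p-values rest on the spread among these libraries alone, which may be technical.

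STATs carry cytokine signals from the membrane to the nucleus. A cytokine brings its receptor chains together, Janus kinases (JAKs) bound to those chains phosphorylate the receptor and then the STAT, and the STAT pairs up and binds DNA, where among its targets are the SOCS and CISH genes that switch the receptor off again. In mammals, STAT3 answers to the interleukin-6 family, STAT4 to interleukin-12, STAT5A and STAT5B to prolactin, growth hormone and several interleukins, and STAT6 to interleukin-4 and interleukin-13, and prolactin signalling through STAT5 is known in rodents for its part in β-cell growth. The phosphorylated, active form of a STAT is not seen by mRNA sequencing, so all values here are transcript levels.

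The libraries held between 28524617 and 35637508 reads on genes. Normalised counts are reads divided by a size factor of the library, and their log2 values correlated at 0.923 between the Tg(ins:il1b) libraries, at 0.944 between the WT libraries and at most at 0.900 between genotypes. The gene il1b checked the labels, with 587911 and 423851 normalised counts in Tg(ins:il1b), against 11 and 1.9 in WT. The insulin gene ins, the defining β-cell marker, took 11.7 and 9.56% of all reads in Tg(ins:il1b), against 18.5 and 24.5% in WT. Transcripts listed as markers of other cells were present as well. The 4 α-cell markers found, led by gcga and gcgb, summed to 198981 and 440358 normalised counts in Tg(ins:il1b), against 24145 and 32748 in WT, and the 4 δ-cell markers, led by sst1.1 and sst1.2, summed to 47229 and 1141630 in Tg(ins:il1b), against 95215 and 2097 in WT. In a bulk sample, fewer cells of a type and less RNA per cell cannot be told apart. Nor can other cells in the sorted fraction and β-cells that express such markers. For the α-cell genes, the paper proposes that the identity of β-cells may be impaired. It reports both more α-cells and a larger proportion of cells with insulin and glucagon in juvenile Tg(ins:il1b) fish.

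All 8 STAT genes reached 10 normalised counts in 2 or more libraries, the filter for low values, and so entered the limma fit over 18504 genes. At an adjusted p under 0.05, stat5a fell and no other STAT gene passed, so 1 of 8 was called. Over all tested genes 1.63% were called in either direction and 0.530% were called lower. At an unadjusted p under 0.05, 2 STAT genes (stat4 and stat1b) were higher and 1 (stat5a) was lower, where 14.4% of all tested genes passed (7.95% higher and 6.45% lower). DESeq2, run on whole reads recovered from the values, called stat5a lower and stat4 higher, at a background of 2.45% lower, 4.24% higher and 6.68% in all. Here, and where a DESeq2 share is given over all genes, the base is the 18625 genes with a DESeq2 adjusted p. Some genes found in the lists below had no such value and could not be called. With edgeR, stat5a alone was called, at a background of 1.28%. The values of the 2 genotypes did not overlap for stat1b, stat3 and stat4, which were higher in both Tg(ins:il1b) libraries, and for stat5a, which was lower in both. This was 4 of 8 genes, beside 44.4% of all tested genes (22.3% higher and 22.1% lower). The median log2 fold change of the family was 0.0021, with 4 positive and 4 negative values, and that of all tested genes was -0.0094.

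**Figure D1:**
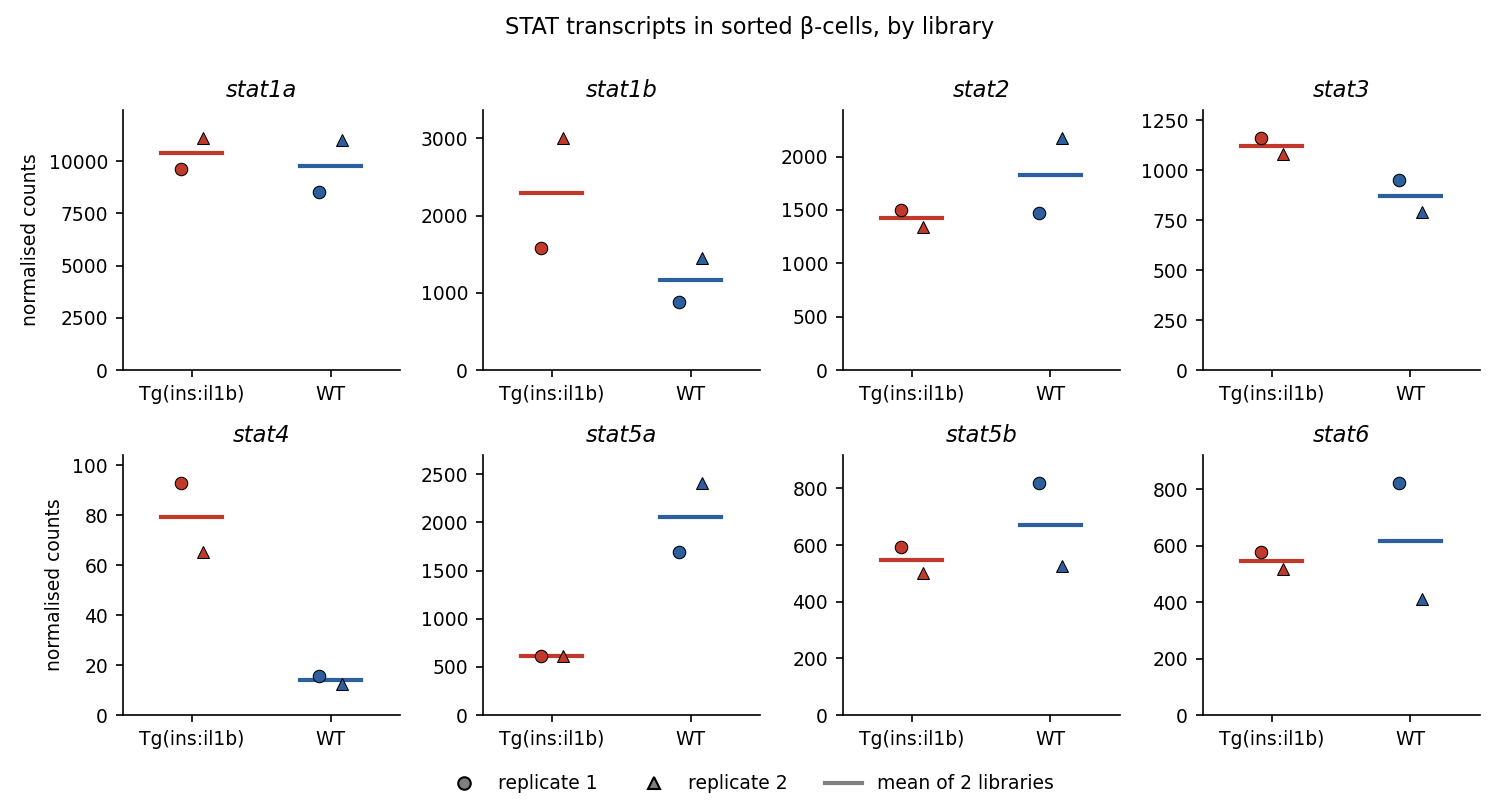
Normalised counts (vertical axes, each from 0) of the 8 STAT genes in the 2 Tg(ins:il1b) libraries (red, left) and the 2 WT libraries (blue, right) of each panel, with replicate 1 as a circle, replicate 2 as a triangle and the mean as a line. The 2 Tg(ins:il1b) values of stat5a nearly coincide at 610.4 and 617.7, below the WT values of 1695 and 2410.0, and stat4 is the lowest gene in all 4 libraries.

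The 2 STAT5 genes stood apart from each other. The gene stat5a (ENSDARG00000019392) spans positions 17101750 to 17182119 on the forward strand of chromosome 3 in GRCz10, the build of all positions given here. Its transcripts reached 610.4 and 617.7 normalised counts in Tg(ins:il1b), against 1695 and 2410.0 in WT. Both Tg(ins:il1b) libraries thus lay below both WT libraries, and they differed from each other by a factor of 1.01, against 1.42 between the WT libraries. The mean was 614 ± 5.16 in Tg(ins:il1b) and 2052 ± 506 in WT (SD, n = 2 each), 3.34-fold lower in Tg(ins:il1b). On the log2 scale the difference was -1.72 (standard error 0.25, 95% interval -2.33 to -1.11). The adjusted p was 0.0370 by limma, 0.0402 by edgeR and 2.17e-06 by DESeq2. Among the 98 genes that limma called lower, it held rank 78 by size of the fall. The call was not made by limma without the variance trend (adjusted p 0.164) or with any 1 library left out. The limma adjusted p was 0.134 and 0.180 without Tg(ins:il1b) replicate 1 and 2, and 0.178 and 0.287 without WT replicate 1 and 2, in fits that called at most 1 gene of the whole table. DESeq2 called stat5a in each of these 4 cases, with adjusted p between 4.46e-04 and 0.0385 and a log2 fold change between -1.97 and -1.47.

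Its paralog stat5b (ENSDARG00000055588) lies on the reverse strand of chromosome 12 from 13521780 to 13612041. It had 593.2 and 500.1 normalised counts in Tg(ins:il1b), against 820.2 and 524.8 in WT. The groups overlapped, and the log2 fold change was -0.27 (standard error 0.30, 95% interval -1.0 to 0.47, limma adjusted p 0.779). Within a library, the log2 ratio of stat5a to stat5b was 0.041 and 0.30 in Tg(ins:il1b), against 1.05 and 2.197 in WT. The ratio, which does not depend on the scaling of a library, was lower in both Tg(ins:il1b) libraries by 1.45 on average, with an exact two-sided permutation p of 0.333, the smallest that 2 against 2 libraries allow. No source used here tells how reads that fit both paralogs were counted, so some reads of 1 gene may stand under the other.

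Several measures are set beside stat5a here. Being lower in both Tg(ins:il1b) libraries, as stat5a was, held for 22.1% of all tested genes, so sharing that direction shows no link. Of the 12 tested β-cell markers, limma called 0 higher and 2 lower (0.530% lower over all tested genes). With edgeR, 1 was called lower, where 69 of all 18504 tested genes were. Among the 14 found, DESeq2 called 4 lower (2.45% over all genes). The 2 limma calls were kcnj11 (a subunit of the ATP-sensitive potassium channel) and g6pcb (a glucose-6-phosphatase subunit), and the list had a median log2 fold change of -0.71. The groups were apart and lower for 7 of the 12 and apart and higher for 2 (22.1 and 22.3% over all tested genes). The 2 higher were the transcription factor genes nkx2.2a and neurod1, named after their values were seen, neither of which passed the threshold. The gene kcnj11 had 488.1 and 473.4 normalised counts in Tg(ins:il1b), against 1718 and 2096 in WT (log2 fold change -1.98, limma adjusted p 0.0204). The β-cell markers summed to 3563100 and 3109330 normalised counts in Tg(ins:il1b), against 6237120 and 8754330 in WT, led by ins and pcsk1. Most of each sum came from ins, so it largely repeats the share of ins given above. Of the 14 β-cell markers found, none was at 0 in any library. The δ-cell sum differed 24.2-fold between the Tg(ins:il1b) libraries and overlapped between the genotypes, and stat5a differed by a factor of 1.01 between these libraries. The α-cell sum and the share of ins did not overlap between the genotypes, and neither did stat5a. The α-cell sum was 198981 and 440358 normalised counts in Tg(ins:il1b), against 24145 and 32748 in WT. The share of ins was 11.7 and 9.56% of all reads in Tg(ins:il1b), against 18.5 and 24.5% in WT. The part of the cell make-up in the stat5a difference was not tested. The genes with the most similar profile over the 4 libraries, by root mean square difference of log2(value + 1) after centring, were si:ch211-208h1.1 (0.0225), mlycd (0.0563), which encodes malonyl-CoA decarboxylase, and ENSDARG00000070661 (0.0746). A profile over 4 libraries is a weak measure of likeness, and 58 of 18503 genes lay within 0.2 of stat5a.

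None of stat1a, stat1b and stat2 passed the threshold. The gene stat1a (ENSDARG00000006266) lies on chromosome 22 from 12773792 to 12802185 on the forward strand, and had 9626 and 11132 normalised counts in Tg(ins:il1b), against 8525 and 11013 in WT. These values overlapped, and the log2 fold change was 0.095 (standard error 0.21, 95% interval -0.42 to 0.61, limma adjusted p 0.904). Its sign was not stable, at -0.0094 without Tg(ins:il1b) replicate 2 and -0.089 without WT replicate 1.

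The paralog stat1b (ENSDARG00000076182), on chromosome 9 from 41417180 to 41445410 on the forward strand, had 1579 and 3009 normalised counts in Tg(ins:il1b), against 885.4 and 1454 in WT. Both Tg(ins:il1b) libraries were above both WT libraries, but the lower Tg(ins:il1b) value lay close to the higher WT value. On the log2 scale the difference was 0.94 (standard error 0.38, 95% interval 0.016 to 1.87). The adjusted p was 0.337 by limma, where the unadjusted value was 0.0472, and 0.188 by DESeq2. With Tg(ins:il1b) replicate 1 left out, DESeq2 gave a log2 fold change of 1.37 with adjusted p 0.0184, and without Tg(ins:il1b) replicate 2 it gave 0.44 and 0.945. The log2 ratio of stat1a to stat1b was 2.61 and 1.89 in Tg(ins:il1b), against 3.27 and 2.92 in WT, a mean difference of -0.85 (exact two-sided permutation p = 0.333).

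The gene stat2 (ENSDARG00000031647) lies on the reverse strand of chromosome 6 from 39126008 to 39162886. It had 1499 and 1341 normalised counts in Tg(ins:il1b), against 1470.4 and 2178 in WT. The groups overlapped and differed by -0.34 on the log2 scale (standard error 0.26, 95% interval -0.96 to 0.29, limma adjusted p 0.646).

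The gene stat3 (ENSDARG00000022712), the STAT of interleukin-6-type cytokines, lies on the forward strand of chromosome 3 from 16880865 to 16957645. It had 1162 and 1080.4 normalised counts in Tg(ins:il1b), against 950.6 and 791.1 in WT, so the groups did not overlap. The log2 fold change was small, at 0.37 (standard error 0.23, 95% interval -0.18 to 0.92), and its adjusted p was 0.543 by limma and 0.708 by DESeq2. The gene stat6 (ENSDARG00000015902), the STAT of interleukin-4 and interleukin-13, lies on the reverse strand of chromosome 23 from 27152325 to 27196639. It had 576.1 and 516.1 normalised counts in Tg(ins:il1b), against 822.9 and 410.0 in WT. Here the WT libraries lay on both sides of the Tg(ins:il1b) libraries, 2.01-fold apart, and the log2 fold change was -0.091 (standard error 0.37, 95% interval -0.99 to 0.81, limma adjusted p 0.953). Without WT replicate 1 it was 0.41.

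**Figure D2:**
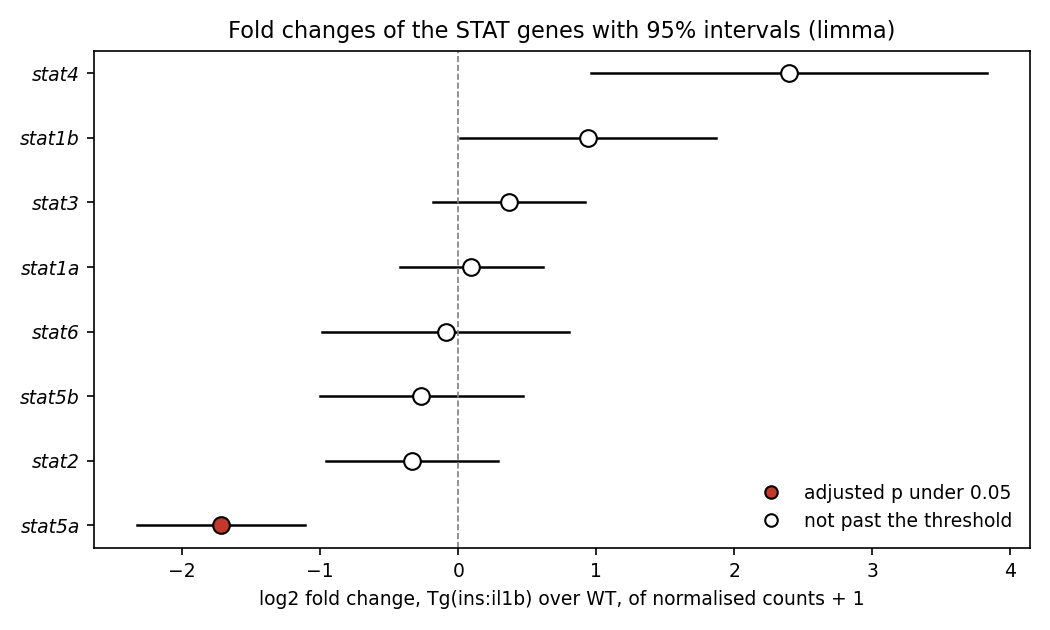
Log2 fold change of each STAT gene in Tg(ins:il1b) over WT on the log2(normalised counts + 1) scale (horizontal axis), ordered by size, with 95% intervals from limma as lines and n = 2 libraries per genotype. The red point, stat5a at -1.72, is past the threshold; the intervals of stat4 and stat1b also lie above 0 before adjustment, and those of the other 5 genes include 0.

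The gene stat4 (ENSDARG00000028731), the STAT of interleukin-12 in mammalian lymphocytes, was the lowest of the family in every library. It lies on the forward strand of chromosome 9 from 41355031 to 41405248. It had 93.0 and 65.2 normalised counts in Tg(ins:il1b), against 15.6 and 12.5 in WT. These rest on 92 and 61 reads in Tg(ins:il1b), with exact 95% Poisson intervals of 74.2 to 113 and 46.7 to 78.4, against 17 and 13 reads in WT, with intervals of 9.90 to 27.2 and 6.92 to 22.2, all of which cover counting error only. The groups were well apart, with the mean 5.63-fold higher in Tg(ins:il1b). On the log2 scale the difference was 2.40 (standard error 0.60, 95% interval 0.96 to 3.83). The adjusted p was 0.135 by limma, where the unadjusted value was 0.00605, with 0.141 by edgeR and 0.0219 by DESeq2. DESeq2 lost the call with any 1 library left out, with adjusted p from 0.231 to 0.506, while the log2 fold change stayed between 2.21 and 2.73. The gene wdr75, on the other strand, overlaps stat4 by 155 bases and had 916.7 and 822.8 normalised counts in Tg(ins:il1b), against 895.5 and 840.3 in WT, and without a stated strand setting reads in the overlap cannot be told apart.

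Leukocytes, the cells in which stat4 is best known, were read from 3 marker lists. From a list of 28 macrophage and pan-leukocyte genes, 27 were found and 22 tested. None of these 22 passed the limma threshold. Before adjustment 8 had a p under 0.05, all higher (7.95% higher over all tested genes), and 4 were called higher with DESeq2, mfap4, c1qb, cybb and fcer1gl (4.24% over all genes). The groups were apart and higher for 12 of the 22, apart and lower for 1, rac2, and overlapped for the rest. Over all tested genes 22.3% were apart and higher and 22.1% apart and lower. Their median log2 fold change was 1.68, and the markers found summed to 22014 and 59345 normalised counts in Tg(ins:il1b), against 6337 and 19573 in WT, most of it from the MHC class II chaperones cd74a and cd74b. At 0 stood 4 and 0 of the markers found in the Tg(ins:il1b) libraries, against 5 and 3 in the WT libraries. The leukocyte phosphatase gene ptprc had 33.4 and 41.7 normalised counts in Tg(ins:il1b), against 6.4 and 6.8 in WT, and the macrophage gene mpeg1.1 had 0 and 20.3 in Tg(ins:il1b), against 0 and 1.0 in WT. Of 11 neutrophil markers, 7 were found, led by mmp9 and lect2l, and summed to 227.4 and 565.2 normalised counts in Tg(ins:il1b), against 69.7 and 52.0 in WT. Of these, 3 were tested and 0 passed the limma threshold, with 2 higher before adjustment (p under 0.05, at 7.95% over all tested genes). Among the 7 found, DESeq2 called 2 higher (4.24% over all genes). Of 22 lymphocyte markers, 8 were found, of which rag2 alone was tested, and summed to 18.2 and 77.9 normalised counts in Tg(ins:il1b), against 23.0 and 39.6 in WT. These lymphocyte sums overlapped between the genotypes. The macrophage and pan-leukocyte sum, most of it from cd74a and cd74b, was 2.70-fold higher in Tg(ins:il1b) replicate 2 than in replicate 1. For stat4, Tg(ins:il1b) replicate 1 was 1.43-fold above replicate 2. This sum and ptprc were higher in Tg(ins:il1b) without overlap of the genotypes, and so was stat4. The part of leukocytes in the stat4 difference was not tested. Of these markers, mfap4, c1qb, cybb, fcer1gl, rac2, ptprc and mpeg1.1 were chosen after their values were seen.

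**Figure D3:**
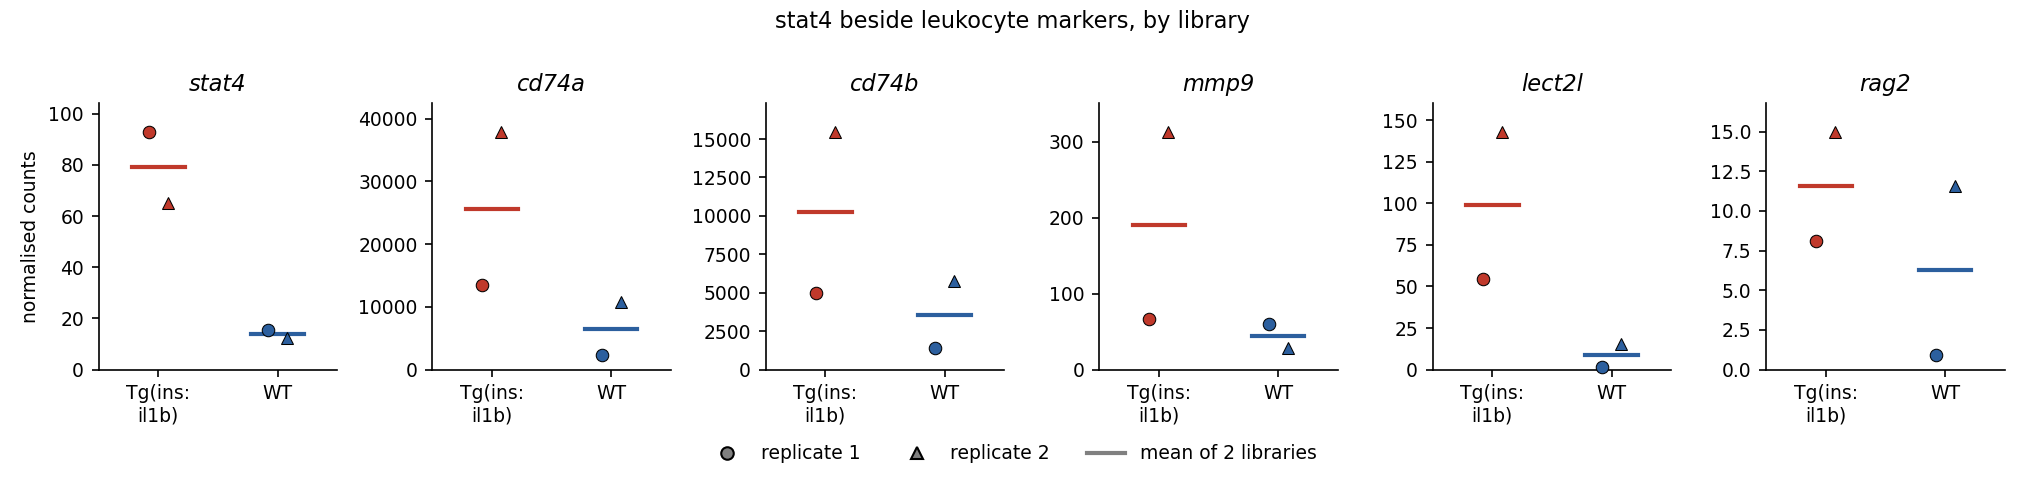
Normalised counts (vertical axes, each from 0) of stat4 and of the 2 markers with the highest mean of each leukocyte list, cd74a and cd74b (macrophage and pan-leukocyte), mmp9 and lect2l (neutrophil) and rag2 (the 1 tested lymphocyte marker), in the 2 Tg(ins:il1b) libraries (red, left) and the 2 WT libraries (blue, right), with replicate 1 as a circle, replicate 2 as a triangle and the mean as a line. Both Tg(ins:il1b) libraries lie above both WT libraries for stat4, cd74a, mmp9 and lect2l, and the groups overlap for cd74b and rag2.

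The levels of the genes were compared with each other per kilobase of the gene length that the deposited table lists. The sum over the 8 genes was 3711 and 4274 normalised counts per kilobase in Tg(ins:il1b), against 3751 and 4573 in WT, so that the family total overlapped between genotypes. The gene stat1a led in every library, with 58.5 and 58.8% of that sum in Tg(ins:il1b), against 51.3 and 54.4% in WT, and lay above 95.4 and 95.9% of all tested genes in Tg(ins:il1b), against 94.9 and 96.0% in WT. The share of stat5a was 6.26 and 5.50% in Tg(ins:il1b), against 17.2 and 20.1% in WT. The share of stat1b was 9.57 and 15.8% in Tg(ins:il1b), against 5.31 and 7.15% in WT. Shares within a library depend on each other, so a lower share of stat5a raises those of the other genes. The normalised counts of stat1a itself overlapped between the genotypes (log2 fold change 0.095).

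The order of the genes below stat1a differed between the genotypes. In Tg(ins:il1b) it ran stat1b, stat3, stat5a, stat2, stat5b, stat6 and stat4, where stat1b overlapped stat3 and stat5b overlapped stat6. The other neighbours were apart, but stat5a (lowest value 232 per kilobase) was so from stat2 (highest value 226) only narrowly. The kind of gene length is not known, so the order of stat5a and stat2 is unsure. In WT it ran stat5a, stat3, stat2, stat1b, stat5b, stat6 and stat4, where stat5a and stat4 stood apart and the 5 genes between them overlapped from neighbour to neighbour. The gene stat5a had 232 and 235 normalised counts per kilobase in Tg(ins:il1b), against 645 and 918 in WT, and thus lay above 71.1 and 71.2% of tested genes in Tg(ins:il1b), against 86.5 and 90.3% in WT. The gene stat4 had 31.9 and 22.4 per kilobase in Tg(ins:il1b), against 5.35 and 4.29 in WT, above 31.8 and 24.3% of tested genes in Tg(ins:il1b), against 9.22 and 7.12% in WT.

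**Figure D4:**
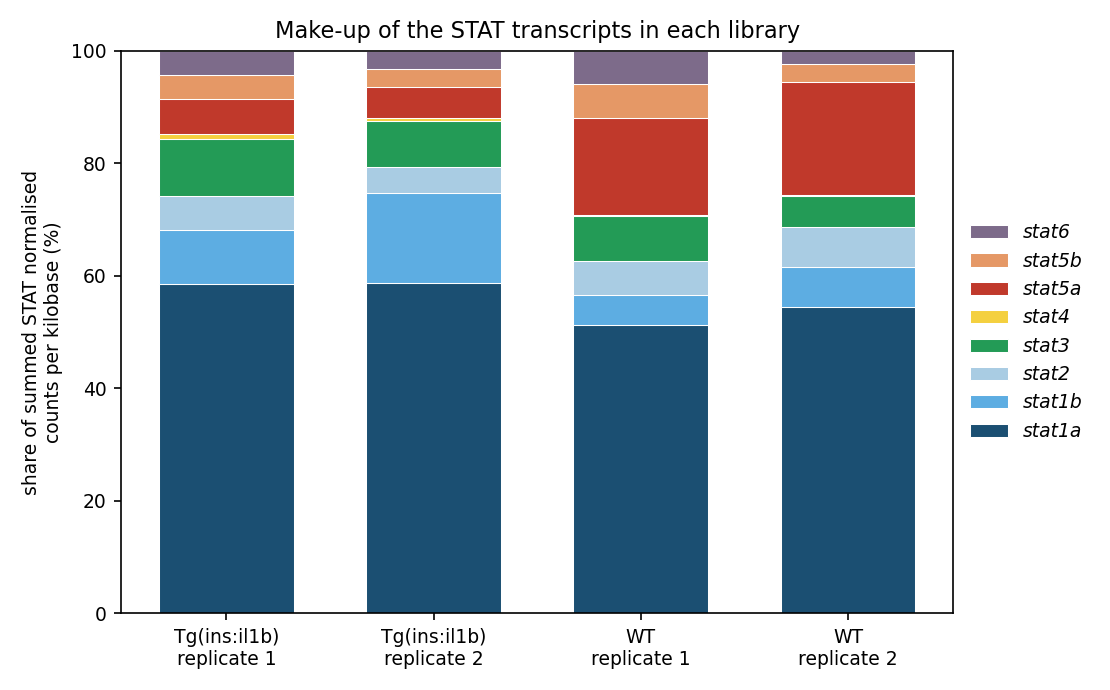
Share of each STAT gene in the summed normalised counts per kilobase of the 8 genes (vertical axis, %), in the 2 Tg(ins:il1b) libraries (left) and the 2 WT libraries (right). The dark blue part, stat1a, holds more than any other gene in all 4 libraries, and the red part, stat5a, is 6.26 and 5.50% in Tg(ins:il1b), against 17.2 and 20.1% in WT.

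The STAT genes include 2 pairs that are neighbours among the genes of the table. The genes stat4 and stat1b lie 11.9 kb apart on the same strand of chromosome 9, and stat3 and stat5a lie 144 kb apart on the same strand of chromosome 3, in both cases with 0 genes of the table between them. Genes absent from the table may lie there. In the first pair both genes were higher in both Tg(ins:il1b) libraries, with log2 fold changes of 2.40 and 0.94. In the second pair the signs differed, at 0.37 for stat3 and -1.72 for stat5a. Next to stat1b, 2.26 kb away, lies the pseudogene si:ch211-196j1.2p, with 41.4 and 67.3 normalised counts in Tg(ins:il1b), against 21.1 and 19.3 in WT.

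The genes around the STATs were read from lists of the pathway. They were chosen with earlier results of these data known, so their counts beside those of all genes are no independent test. Of the 5 JAK genes, 4 were found and tested, and 0 passed the limma threshold, while DESeq2 and edgeR also called 0. At an unadjusted p under 0.05, 1 was higher, where 7.95% of all tested genes were. That gene was jak1, the kinase of interferon and interleukin-6-type receptors, which had 2236 and 2447 normalised counts in Tg(ins:il1b), against 1369 and 1433 in WT. The groups were apart and differed by 0.74 on the log2 scale (standard error 0.20, limma adjusted p 0.161). The gene jak2b, a copy of the kinase of prolactin and growth hormone receptors, had 727.7 and 704.2 in Tg(ins:il1b), against 742.1 and 699.4 in WT, a log2 fold change of -0.0092.

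Of 25 inhibitors of the pathway (SOCS, CISH, PIAS and phosphatase genes), 23 were found and 22 tested. Limma and edgeR called 0, and before adjustment 2 were higher and 2 lower with p under 0.05, where 14.4% of all tested genes passed. With DESeq2, 1 was called higher and 1 lower, at its background of 6.68%. The list had a median log2 fold change of -0.17. The gene cish, known in mammals as a STAT5 target that dampens cytokine receptors, had 1373 and 397.5 normalised counts in Tg(ins:il1b), against 4592 and 2205 in WT. Both Tg(ins:il1b) libraries were lower, though each genotype had a wide spread, and the difference on the log2 scale was -2.11 (standard error 0.61, with adjusted p 0.187 by limma and 0.0138 by DESeq2). The gene socs1a, a homologue of the inhibitor of interferon signalling SOCS1 and named after its values were seen as the other DESeq2 call, had 239.5 and 386.8 in Tg(ins:il1b), against 122.2 and 62.7 in WT (log2 fold change 1.79, limma adjusted p 0.154). The phosphatase gene ptpn11a had 3381 and 3408 in Tg(ins:il1b), against 3832 and 3572 in WT, a log2 fold change of -0.12.

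The 46 receptor symbols led to 33 different genes in the table, some under more than 1 symbol, and 28 of these genes were tested. Limma, edgeR and DESeq2 called 0 of these, with 5 higher and 1 lower before adjustment (p under 0.05, at 7.95% higher and 6.45% lower over all tested genes), and the median log2 fold change was 0.36. The highest was prlra, a prolactin receptor, with 14217 and 15086 normalised counts in Tg(ins:il1b), against 17543 and 17285 in WT. It was lower in both Tg(ins:il1b) libraries by little (log2 fold change -0.25, 95% interval -0.69 to 0.19, limma adjusted p 0.620). The receptor gene il11ra had 3379.6 and 3032 in Tg(ins:il1b), against 2759 and 2713 in WT, a log2 fold change of 0.23. Of 39 cytokine symbols, 20 were found and 13 tested. Limma and edgeR called 0, with 4 higher before adjustment (p under 0.05, at 7.95% over all tested genes), and the median log2 fold change was 1.19. DESeq2 called 3 higher (4.24% over all genes), named after their values were seen: il11a, si:dkey-225k4.1 (il7 under its current symbol) and il34. Being on the list does not show that a cytokine, such as il34, acts through a JAK-bound receptor. The interleukin-6-type cytokine gene il11a had 15.2 and 70.5 normalised counts in Tg(ins:il1b), against 0.9 and 0 in WT. The gene il15 had 167.8 and 257.5 in Tg(ins:il1b), against 271.9 and 306.8 in WT, and il15l had 118.2 and 384.7 in Tg(ins:il1b), against 127.7 and 248.9 in WT.

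**Figure D5:**
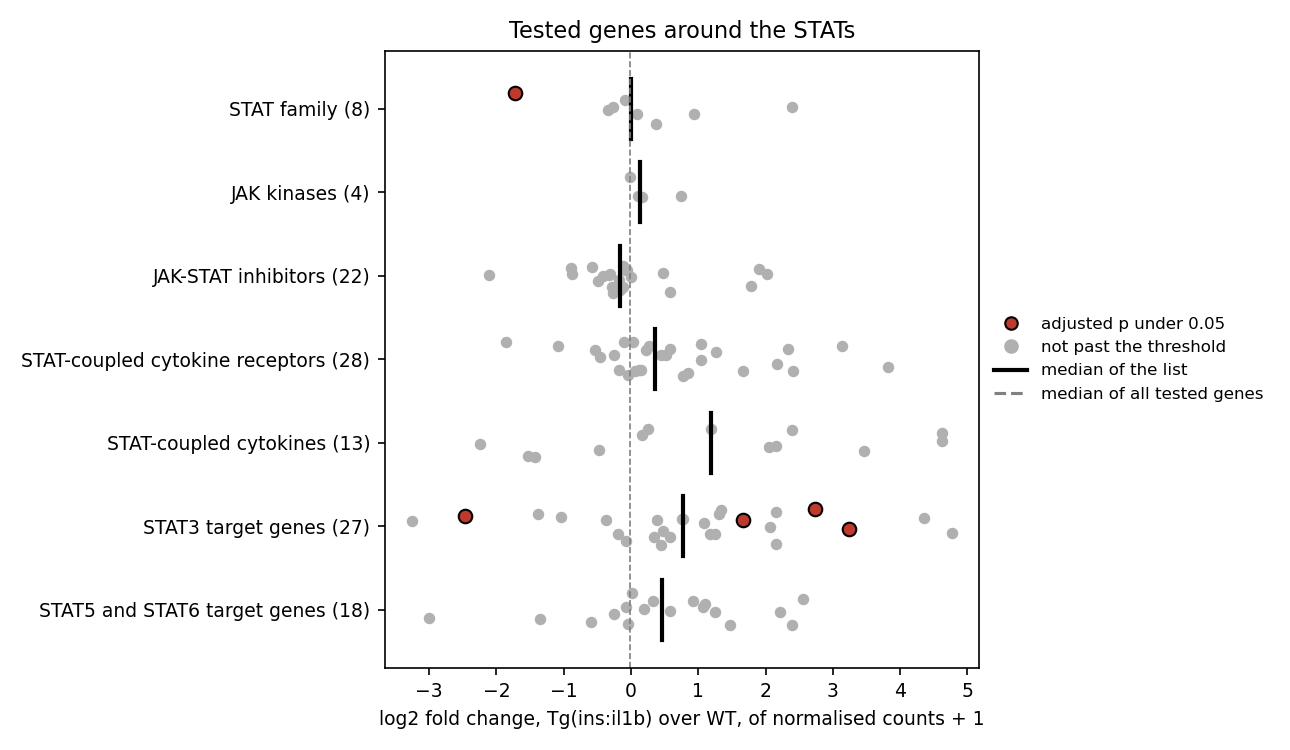
Log2 fold change in Tg(ins:il1b) over WT on the log2(normalised counts + 1) scale (horizontal axis) of each tested gene (points) of 7 lists, with the number tested in parentheses, the list median as a black line and the median of all 18504 tested genes as a dashed line. Red points passed the limma threshold; 1 lies in the STAT family, 4 among STAT3 targets and 0 in the other 5 lists.

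Of 38 targets of STAT3, 33 were found and 27 tested. Limma called 3 higher and 1 lower, where 1.63% of all tested genes were called. Among the 33 found, DESeq2 called 8 higher and 2 lower (4.24 and 2.45% over all genes). The lower calls were cebpd and fgg, a gene that failed the filter and was named after its values were seen. It had 2.0 and 2.1 normalised counts in Tg(ins:il1b), against 169.0 and 1.9 in WT. The call of fgg thus rests on WT replicate 1. The listed genes fga, fgb and a2ml, also named after their values were seen, had 113.0, 184.6 and 115.7 in that library. They had at most 4.3 in any other library, while saa and hp were not highest in WT replicate 1. With edgeR, 0 of the tested targets were called higher and 1 lower, where 167 and 69 of all 18504 tested genes were. The median log2 fold change of the tested targets was 0.78. The proto-oncogene myca had 1287 and 1639 normalised counts in Tg(ins:il1b), against 529.9 and 391.7 in WT (log2 fold change 1.67, limma adjusted p 0.0469). The gene bcl3, an IκB family protein that also answers to NF-κB, had 201.1 and 333.4 in Tg(ins:il1b), against 37.7 and 38.6 in WT (2.73, adjusted p 0.0482). The fibrinogen-like gene fgl2a had 151.6 and 313.1 in Tg(ins:il1b), against 21.1 and 23.2 in WT (3.24, adjusted p 0.0488). The transcription factor gene cebpd had 324.4 and 586.7 in Tg(ins:il1b), against 2708 and 2135 in WT, and fell by 2.46 in log2 terms (standard error 0.33, adjusted p 0.0280). Among the tested targets of STAT3, limma thus called 3 higher and cebpd alone lower.

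Of 27 targets of STAT5 and STAT6, 23 were found and 18 tested. Limma and edgeR called 0, with 3 higher and 1 lower before adjustment (p under 0.05, where 14.4% of all tested genes passed), and the median log2 fold change was 0.46. DESeq2 called 2 higher (4.24% over all genes), ccnd2a and arg2, which were named after their values were seen. The cyclin D2 gene ccnd2a, whose mammalian homologue is induced in β-cells by prolactin and STAT5, had 1150.1 and 878.4 normalised counts in Tg(ins:il1b), against 422.5 and 423.5 in WT (log2 fold change 1.25, adjusted p 0.0853 by limma and 0.00221 by DESeq2). The chitinase gene chia.6 had 1262 and 1639 in Tg(ins:il1b), against 1000.2 and 452.5 in WT (1.095, limma adjusted p 0.282).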

How the data were processed

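FACS-sorted β-cells of Tg(ins:il1b) and WT zebrafish were measured in 2 libraries each, grouped by the sample titles. The authors mapped paired reads with GSNAP to GRCz10 with Ensembl annotation, and deposited 1 signal value per gene and library under the name normalised counts. Not given in the sources used here are the counter, its strand setting, the use of multi-mapping reads and the kind of gene length listed. Whole reads were recovered from the steps of the values: 100% lay within 0.1 of a whole number. Columns of no sample numbered 0 among the value columns. The lowest sum of a gene over the libraries was 10.1, so genes with lower values seem to be absent. A listed gene that was not found may thus be low or stand under another symbol.

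The main test was limma 3.58.1 (R 4.3.3) with the variance trend on log2(value + 1), over genes that reached 10 normalised counts in 2 or more libraries, with Benjamini-Hochberg adjustment over all of them and a threshold of 0.05. Fold changes on this scale understate those of low genes. DESeq2 1.42.0 and edgeR 4.0.16 were run on the recovered reads. DESeq2 called 1245 genes, the number that the study reports at a false discovery rate under 0.05. The study does not name its test, and whether the same genes were called was not checked. Intervals of read numbers are exact Poisson intervals. The fits were also run on simulated data, where each gene had the typical spread of its expression level. Changes were planted only in genes above a set level, so the run does not cover low genes or genes of wider spread. Other pseudocounts (0.5 and 5), filters, TMM scaling, a replicate block and leaving out each library were tried. DESeq2 with a library left out was added after the data were seen. Tables were handled with Python 3.11.15, pandas 2.3.3, numpy 2.4.6 and scipy 1.17.1, and figures drawn with matplotlib 3.10.9.

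Results of 1 gene list are not reported here. The members and lists were chosen with earlier results of these data known. Named were all STAT genes, up to 4 called genes of each list by smallest p, or, in lists with under 2 such genes, up to 2 further tested members of highest mean, the 2 markers of highest mean of each cell type, and the 3 genes of most similar profile to stat5a. Of marker lists without a value in the report, the acinar markers (led by try and amy2a) summed to 2414 and 4511 normalised counts in Tg(ins:il1b), against 1398 and 7495 in WT, the endothelial markers (tek and tie1) to 108 and 129, against 197 and 211, the fibroblast markers (col5a1 and dcn) to 392 and 746, against 513 and 397, and the single erythroid marker found, slc4a1a, to 18.2 and 6.4, against 0.9 and 1.0.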

Additional observations from a re-analysis of the deposited data

How the results depend on the processing

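The fall of stat5a kept its direction under all 17 alternatives, with a log2 fold change from -1.97 to -1.46, and its call under 12. The direction of stat1b, stat2, stat3 and stat4 was kept under all 17 as well. The count of called STAT genes (1) was 0 without the variance trend and 2 with DESeq2, and leaving out a library gave 0 with limma and 1 to 2 with DESeq2. The count over all genes (302) was 13 without the variance trend and 1245 with DESeq2, and leaving out a library gave 0 to 1 with limma and 658, 730, 744 and 1224 with DESeq2. The count over all pathway lists without the STATs (7, the unreported list included) was 3 with a pseudocount of 0.5, 0 without the variance trend, 30 with DESeq2 and 3 with edgeR, and leaving out a library gave 0 with limma and 8, 20, 28 and 36 with DESeq2. A lone library left in a genotype was assumed to vary like the other 2. On leaving out a library, signs turned for stat1a (limma range -0.089 to 0.28, with -0.086 and -0.016 by DESeq2 for the 2 libraries that turned it), stat5b (-0.59 to 0.054, with 0.059 by DESeq2) and stat6 (-0.59 to 0.41, with 0.41 by DESeq2). The replicate numbers were not shown to pair the libraries, since deviations of same-numbered libraries correlated at 0.033. With the replicate number as a block, 437 genes were called, 14 of the pathway lists and 1 STAT gene, stat5a (adjusted p 0.0264). The paralog ratios kept their sign under all alternatives, from -1.21 to -0.49 for stat1a over stat1b and from -2.02 to -0.87 for stat5a over stat5b. Depth limits stat4 most, with 13 to 92 reads per library.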

Other observations

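A second gene carried the symbol cishb. The protein-coding gene of that name, a CISH-type inhibitor on chromosome 11 from 17824872 to 17829890 of GRCz10, had 47.5 and 1.1 normalised counts in Tg(ins:il1b), against 19.3 and 6.8 in WT. An antisense gene on the opposite strand, from 17822253 to 17828818, had 1290.6 and 1427 in Tg(ins:il1b), against 512.5 and 541.2 in WT. The antisense gene rose (log2 fold change 1.36, standard error 0.22, adjusted p 0.0486 by limma and 7.23e-05 by DESeq2). This was a call that edgeR did not make (adjusted p 0.0519), and the gene was noted after its values were seen. Without a stated strand setting, reads of the 2 genes where they overlap cannot be told apart.

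The gene apof, which lies 1.87 kb from stat2 on the same strand of chromosome 6 and encodes an apolipoprotein, had 191.0 and 177.4 normalised counts in Tg(ins:il1b), against 883.5 and 1750.1 in WT. It fell by 2.75 in log2 terms (standard error 0.37, limma adjusted p 0.0280), while stat2 itself did not pass the threshold. This neighbour was also noted after its values were seen.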
